A study of Mus musculus with 4 samples.

Results

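Calprotectin (S100a8 and S100a9), the beta-defensins Defb1, Defb3 and Defb4, the cathelicidin Camp, the siderophore binder Lcn2 and the acute-phase genes Orm1 and Saa3 were described in basal cells of mouse tail epidermis. All probe sets whose annotated symbol was one of these 9 genes were taken, which gave 10 probe sets of the 45101 on the array and 9 of the 18193 genes tested. They were selected on the measured differences between the Sox9cKO and SmoM2 arrays described here, so their own values are given as a description, without a test. Signals are on the log2 scale as deposited, and every difference is Sox9cKO minus SmoM2.

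Of the 4 arrays, 2 came from K14CreER:SmoM2:Sox9cKO mice (the Sox9cKO group) and 2 from K14CreER:SmoM2 mice with Sox9 present (the SmoM2 group). SmoM2 is a constitutively active form of Smoothened, the transducer of Hedgehog signals, and both groups expressed it. K14CreER is a tamoxifen-dependent Cre under a basal keratinocyte promoter. Mice were sampled 9 weeks after the first of 10 daily doses of 2.5 mg tamoxifen, and tail cells were sorted for Alpha6 integrin on their surface and for lack of CD34. No array without SmoM2 was analysed here, the labels give no age of the mice, and they do not say how many animals made up a sample, so p-values measure only the spread between these samples.

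Antimicrobial proteins are made by epithelia at their surface and by neutrophils. S100a8 and S100a9 pair to form calprotectin, which withholds zinc and manganese from microbes, while Lcn2 binds bacterial siderophores and so withholds iron. Beta-defensins and the cathelicidin peptide are small cationic molecules that damage microbial membranes. In keratinocytes many of these genes are induced by cytokines of the interleukin-1, interleukin-17 and interleukin-22 families, acting through NF-kB, C/EBP and STAT factors.

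The stretches before the transcription start are shown for 4 of the 5 genes that were far lower in Sox9cKO cells, those for which RefSeq (GRCm38.p6) supplied an entry. Each runs 5′ to 3′ over the 250 bases before the annotated start, and capitals mark letters that match the C/EBP form TTGCNNAA on either strand.
S100a8, chr3:90668821-90669070, plus strand: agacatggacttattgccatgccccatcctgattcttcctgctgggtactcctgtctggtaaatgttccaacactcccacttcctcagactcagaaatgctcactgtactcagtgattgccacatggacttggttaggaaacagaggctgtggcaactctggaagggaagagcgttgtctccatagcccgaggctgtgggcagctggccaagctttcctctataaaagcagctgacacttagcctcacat
S100a9, chr3:90695722-90695971, minus strand: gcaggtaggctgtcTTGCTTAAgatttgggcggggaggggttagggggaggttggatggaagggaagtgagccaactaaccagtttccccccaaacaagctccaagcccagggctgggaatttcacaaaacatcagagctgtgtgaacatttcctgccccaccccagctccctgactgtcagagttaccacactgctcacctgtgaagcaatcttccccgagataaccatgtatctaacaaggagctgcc
Lcn2, chr2:32387740-32387989, minus strand: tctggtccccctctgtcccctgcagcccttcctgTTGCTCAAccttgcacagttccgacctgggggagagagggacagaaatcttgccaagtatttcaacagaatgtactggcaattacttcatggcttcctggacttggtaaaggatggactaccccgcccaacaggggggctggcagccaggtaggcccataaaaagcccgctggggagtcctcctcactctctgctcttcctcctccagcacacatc
Defb3, chr8:19293111-19293360, plus strand: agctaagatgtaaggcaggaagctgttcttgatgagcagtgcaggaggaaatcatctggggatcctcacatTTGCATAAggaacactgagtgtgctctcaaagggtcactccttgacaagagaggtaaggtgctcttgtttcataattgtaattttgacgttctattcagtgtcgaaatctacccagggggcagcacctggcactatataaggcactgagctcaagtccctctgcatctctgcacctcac

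The letters TTGCNNAA stood in 3 of these 4 stretches and in 4 of the 6 genes with an entry, the other being Saa3, against 9.55% of 27025 promoters of the same length. Both strands were also searched for the NF-kB form GGGNNTTCC (in 4.88% of promoters) and the same form with 1 more T (1.4%), the STAT form TTCNNNGAA (7.18%), the SOX form AACAAT (9.65%) and the AP-1 form TGANTCA (6.87%), and none of the 6 genes held any of them in this window. No match overlapped another. A match describes letters, not a bound site. Orm1, Defb1 and Defb4 had no entry and were not searched.

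The deleted gene was read at its 3 probe sets. The probe set of Sox9, a transcription factor of hair follicle cells, that changed most read 6.75 and 5.70 in Sox9cKO arrays against 10.21 and 10.02 in SmoM2 arrays (log2 change -3.89, SE 0.32, limma adjusted p = 0.00159 over 34945 probe sets). The Sox9 probe set with the highest mean read 8.06 and 8.48 in Sox9cKO arrays against 8.77 and 9.27 in SmoM2 arrays (log2 -0.75, adjusted p = 0.143). The third was dim, at 4.06 and 3.86 in Sox9cKO arrays against 4.22 and 4.52 in SmoM2 arrays (log2 -0.41, adjusted p = 0.298). Nothing in the labels places the probes inside or outside the deleted stretch. The medians of all probe sets lay between 5.45 and 5.48 on the 4 arrays. Y-linked genes were bright in Sox9cKO replicate 1 and SmoM2 replicate 2 (6.74 to 9.48) and dim in the other arrays (3.23 to 3.62), so arrays of either kind stood in both groups. The mean of 24 spiked labelling control probe sets was 9.19 and 7.66 in Sox9cKO arrays and 9.00 and 8.30 in SmoM2 arrays.

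The keratins of basal epidermis were bright, and so were those of the layers above it. Krt5 read 13.20 and 13.40 in Sox9cKO arrays against 13.20 and 13.41 in SmoM2 arrays, and Krt14 read 13.15 and 13.30 in Sox9cKO arrays against 13.51 and 13.76 in SmoM2 arrays. Krt10, a suprabasal keratin, read 13.07 and 13.66 in Sox9cKO arrays against 12.98 and 12.95 in SmoM2 arrays, and Krt1 read 12.54 and 12.86 in Sox9cKO arrays against 12.72 and 12.11 in SmoM2 arrays. Itga6, the integrin sorted for, read 11.14 and 11.15 in Sox9cKO arrays against 11.42 and 11.77 in SmoM2 arrays (adjusted p = 0.192). Of 10 basal markers 8 had a negative change, and Lamb3, a laminin chain, passed as lower (log2 -1.25, adjusted p = 0.00949). Cd34, the marker sorted against, was dim throughout, at 3.95 and 3.75 in Sox9cKO arrays and 4.14 and 4.15 in SmoM2 arrays. In sorted populations a lower signal from fewer cells expressing a gene and from less RNA per cell cannot be told apart.

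Most of the 9 genes were lower without Sox9, and 1 was higher. S100a8, S100a9, Defb3, Orm1 and Lcn2 were lower by 2-fold or more without overlap of the groups, as were 2.41% of all genes. Defb1 was higher by 2-fold or more without overlap, as were 1.75% of all genes, so that either direction held 6 of the 9 genes and 4.16% of all genes. The limma fit across all genes is no test of genes selected on these values. In it 5 of the 9 lay under an adjusted p of 0.05 as lower (3.53% of all genes did) and 1 as higher (2.66% did). These counts follow from how the genes were chosen and support nothing.

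**Figure D1:**
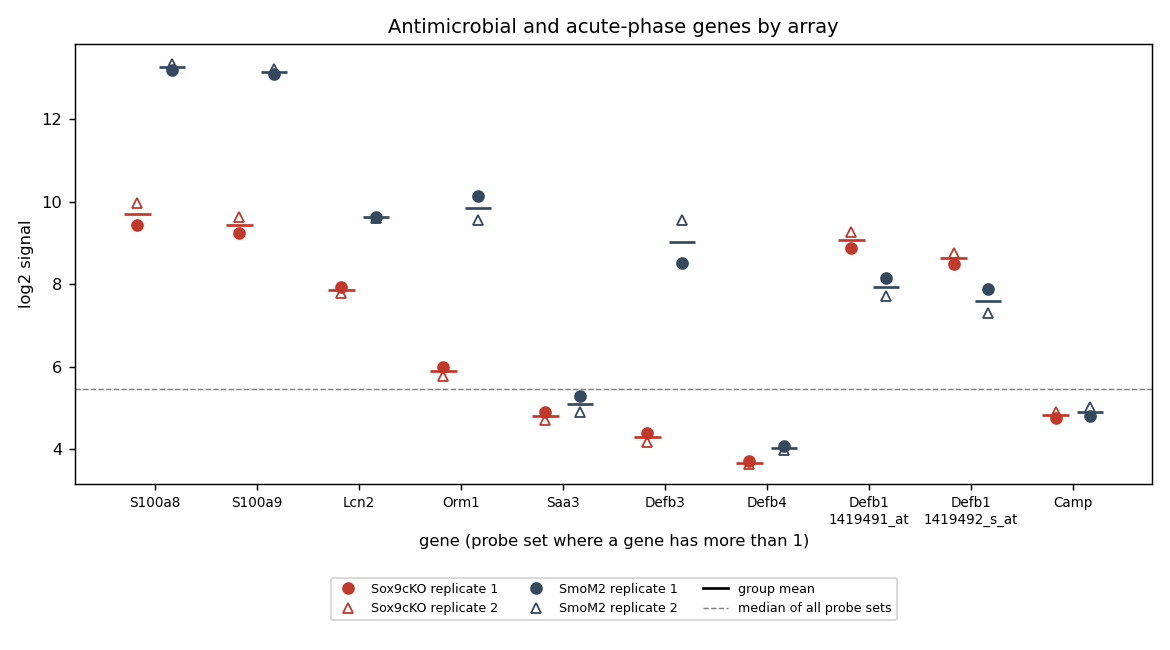
Log2 signal of every probe set of the 9 genes on each array, with Sox9cKO arrays in red, SmoM2 arrays in blue and short lines at the group means; the dashed line is the mean of the 4 array medians. S100a8, S100a9, Lcn2, Orm1 and Defb3 sit lower in Sox9cKO arrays by 1.75 to 4.73, both Defb1 probe sets sit higher, and Camp, Defb4 and Saa3 lie under the dashed line on all arrays.

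The calprotectin genes were far above the upper quartile of all probe sets in SmoM2 cells. S100a8 read 9.43 and 9.97 in Sox9cKO arrays against 13.18 and 13.33 in SmoM2 arrays, 11.8-fold lower (log2 -3.56, SE 0.20). S100a9 read 9.25 and 9.63 in Sox9cKO arrays against 13.09 and 13.21 in SmoM2 arrays, 13.1-fold lower (log2 -3.71, SE 0.17). Both stayed well above the array median in Sox9cKO cells, and the gap between the nearest arrays of the groups was 3.21 for S100a8 and 3.46 for S100a9 on the log2 scale. The profiles of the pair were the closest of any 2 of the 9 genes, at a Euclidean distance of 0.19 between centred log2 values over the 4 arrays. The S100a8 probe set is of the kind that can match several transcripts (_s_at).

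Lcn2, the siderophore binder of neutrophils and inflamed epithelium, was lower by a smaller step. It read 7.94 and 7.80 in Sox9cKO arrays against 9.64 and 9.60 in SmoM2 arrays, 3.37-fold lower (log2 -1.75, SE 0.14). The groups did not overlap, and replicate 1 lay above replicate 2 by 0.14 in Sox9cKO arrays and 0.03 in SmoM2 arrays.

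Orm1 encodes alpha-1-acid glycoprotein, a plasma carrier protein made mostly by the liver in the acute phase. It read 6.00 and 5.79 in Sox9cKO arrays against 10.13 and 9.55 in SmoM2 arrays, 15.4-fold lower (log2 -3.95, SE 0.21). In Sox9cKO cells it lay close to the array median. Its neighbours on chromosome 4 and close relatives, Orm3 and Orm2, were dim on all arrays, with log2 changes of -0.43 (adjusted p = 0.320) and 0.16 (adjusted p = 0.671). Saa3, the serum amyloid A form made outside the liver, read 4.89 and 4.70 in Sox9cKO arrays against 5.30 and 4.91 in SmoM2 arrays. All 4 values were under the array median, and the groups were separated by only 0.02. Saa1, Saa2 and Saa4, its relatives, were also under the array median (adjusted p between 0.446 and 0.925).

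The 3 beta-defensins differed from one another. Defb3, an inducible defensin of skin, read 4.40 and 4.18 in Sox9cKO arrays against 8.50 and 9.54 in SmoM2 arrays, 26.5-fold lower (log2 -4.73, SE 0.31). Of all 18193 genes its log2 difference was the most negative, with Orm1 ranked 4, S100a9 ranked 7, S100a8 ranked 10 and Lcn2 ranked 134. Its Sox9cKO values lay at the lower quartile of all probe sets (4.27 and 4.29), where a signal cannot be read from background, so the size of the difference is not exact. SmoM2 replicate 1 minus replicate 2 was -1.04, the widest gap within a group among the 9 genes.

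Defb1, a defensin expressed constitutively in many epithelia, went the other way at both of its probe sets. The probe set that stood for the gene in the fit read 8.86 and 9.27 in Sox9cKO arrays against 8.15 and 7.72 in SmoM2 arrays, 2.19-fold higher (log2 1.13, SE 0.20). The other, an _s_at probe set, read 8.49 and 8.76 in Sox9cKO arrays against 7.87 and 7.29 in SmoM2 arrays, 2.06-fold higher. The groups did not overlap at either. Defb4, another inducible defensin, read 3.71 and 3.65 in Sox9cKO arrays against 4.09 and 3.99 in SmoM2 arrays, under the lower quartile of the probe sets on all arrays. Camp, precursor of the cathelicidin peptide, read 4.77 and 4.91 in Sox9cKO arrays against 4.79 and 5.02 in SmoM2 arrays, with the groups overlapping and all values under the median. Of the 9 genes, 8 had groups that did not overlap at any size of difference, as had 47.9% of all genes.

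The size of the differences varied with the arrays set against each other. Between the arrays with Y-linked signal and between those without it, S100a8 differed by -3.91 and -3.21 on the log2 scale, S100a9 by -3.97 and -3.46 and Defb3 by -5.14 and -4.32. Over the same pairs Orm1 differed by -3.55 and -4.34, Lcn2 by -1.67 and -1.84, and Defb1 by 1.14 and 1.12. Between arrays of the same replicate number, Defb1 differed by 0.72 and 1.55. Camp differed by -0.25 and 0.11 between arrays alike in Y-linked signal.

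Neighbouring genes on the chromosomes did not share these differences as a rule. S100a8 and S100a9 lie next to each other among the measured genes of chromosome 3, and S100a6 and S100a5 on one side had log2 changes of 0.01 (adjusted p = 0.976) and -0.03 (adjusted p = 0.954). On the other side S100a7l2 was dim, and beyond it Lor, the cornified envelope protein loricrin, rose by 1.56 (adjusted p = 0.00135). The measured genes nearest Defb3 on chromosome 8 are Defb5 and Defb8, both dim, followed by Defb7 and by Defb6, a defensin of keratinocytes. Defb6 was bright at 12.08 and 12.77 in Sox9cKO arrays against 12.33 and 12.23 in SmoM2 arrays, with the groups overlapping (adjusted p = 0.819). None of the 4 nearest measured genes of Lcn2 on chromosome 2 or of Orm1 on chromosome 4 passed the test by limma. Map4, a microtubule-binding gene near Camp on chromosome 9, changed by -0.80 (adjusted p = 0.0167).

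The genes whose profile over the 4 arrays lay nearest to that of calprotectin were of mixed kinds. Nppb, a natriuretic peptide gene, was nearest, at a Euclidean distance of 0.12 between centred log2 values. Nppb read 5.21 and 5.73 in Sox9cKO arrays against 9.10 and 9.31 in SmoM2 arrays. It was followed by Frem2, a basement membrane gene (distance 0.33), the amino acid transporters Slc7a2 and Slc38a4 (0.37 each), Cp (0.47), the ferroxidase ceruloplasmin and itself an acute-phase protein, and the scaffold gene Dlgap1 (0.51). These 6 genes differed by log2 -3.74 to -3.27. They were picked for their likeness, so no test is given for them.

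Genes around the same functions were then counted in 9 lists, and their members were tested in the limma fit over all 18193 genes. Of 218 related genes measured, 31 fell and 4 rose at an adjusted p under 0.05, together 16.1%, against 6.19% of all genes. The lists were chosen with earlier results of these data known, so this difference in share is no test of the lists. The median log2 change was -0.06 for the related genes and 0.02 for all genes. For 1 gene alone, 2 arrays against 2 allow no exact permutation p under 0.333, so each call borrows limma's estimate of the spread from the other genes. Of the 35 calls, 16 passed under every alternative in which the gene was tested and 19 missed the threshold under at least 1. Without SmoM2 replicate 2, 18 of the related genes were called lower.

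**Figure D2:**
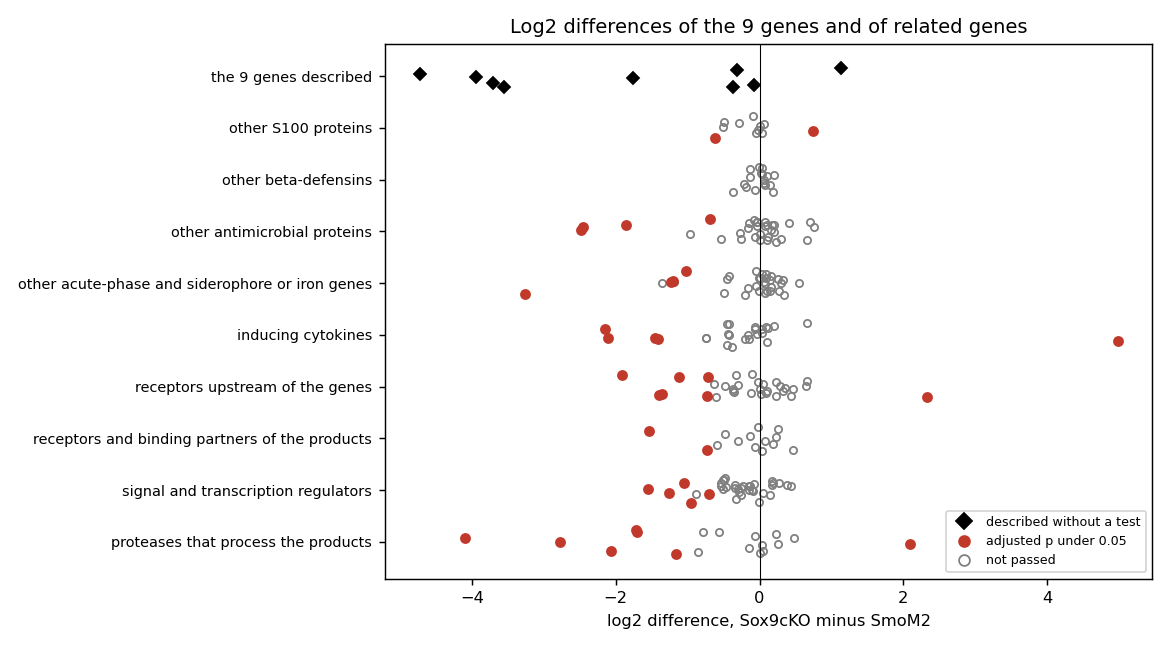
Log2 difference, Sox9cKO minus SmoM2, of the 9 genes (black diamonds, described without a test) and of each measured gene of the 9 related lists, filled red where the adjusted p was under 0.05. The beta-defensin list has no filled point, and 31 of the 35 different filled genes lie left of 0; Tlr4 stands in both receptor lists.

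The other S100 proteins and beta-defensins mostly did not pass. Of 11 other S100 genes measured, S100a1, a calcium sensor, fell and S100a3, a hair cuticle protein, rose, with a median change of -0.06 over the list. S100a3 read 6.87 and 6.86 in Sox9cKO arrays against 6.07 and 6.16 in SmoM2 arrays (log2 0.75, adjusted p = 0.0189). S100a1 read 7.24 and 7.40 in Sox9cKO arrays against 7.92 and 7.94 in SmoM2 arrays (log2 -0.61, adjusted p = 0.0464). Both groups were apart, but with any 1 array left out the adjusted p was 0.0678 to 0.110 for S100a3 and 0.0866 to 0.190 for S100a1. For S100a1 it was also 0.0502 with an intensity trend, 0.0545 after quantile normalization and 0.0846 with Y-linked signal as a block. The bright epidermal members S100a6, S100a14 and S100a16 had log2 changes of 0.01, 0.04 and 0.06 (adjusted p of 0.901 or more). Of 17 other beta-defensins none was called by limma, and 0 had an unadjusted p under 0.05 (median 0.03), while 12 of them were under the lower quartile on all arrays.

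Among other antimicrobial proteins, 4 of 32 measured genes fell and none rose (median 0.01). Lyz1, a lysozyme, and Wfdc21, a whey acidic protein-domain gene, were called higher without Sox9cKO replicate 2 (adjusted p of 0.0149 and 0.0249), and with the replicate block these and Ccl20, a chemokine with antimicrobial activity, were called higher. Lpo, a peroxidase, went the other way (log2 -0.96, limma adjusted p = 0.0501 with all arrays). It was called lower with the replicate block (adjusted p = 0.0079) and with Y-linked signal as a block (adjusted p = 0.0241). The same held with an intensity trend (adjusted p = 0.0373) and after quantile normalization (adjusted p = 0.0429). Lyz1, Ccl20 and Lpo are named after their values were seen. Duox1, a hydrogen peroxide-producing oxidase of epithelial surfaces, read 6.54 and 6.61 in Sox9cKO arrays against 8.44 and 8.43 in SmoM2 arrays, 3.63-fold lower (log2 -1.86, SE 0.13, adjusted p = 0.000529). Duoxa1, the factor that Duox1 needs to mature, read 8.47 and 7.52 in Sox9cKO arrays against 10.60 and 10.35 in SmoM2 arrays (log2 -2.48, adjusted p = 0.00332). The oxidase and its partner thus both fell, with groups apart by more than the replicates. Wfdc18, a small whey acidic protein-domain gene, fell by 2.45 on the log2 scale (adjusted p = 0.00653), and Gsdmd, a pore-forming protein of inflammatory cell death, changed by -0.69 (adjusted p = 0.0278). With any 1 array left out, Gsdmd had an adjusted p of 0.0903 to 0.152, and with Y-linked signal as a block 0.0547. Slpi, a secreted protease inhibitor with antimicrobial activity, was bright but variable, at 11.84 and 10.44 in Sox9cKO arrays against 10.20 and 11.73 in SmoM2 arrays (adjusted p = 0.922). With all arrays Wfdc21 had a log2 change of 0.76 (adjusted p = 0.0757).

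Of 33 measured acute-phase and iron genes, 4 fell and none rose (median 0.03). Cp read 4.51 and 4.58 in Sox9cKO arrays against 7.70 and 7.93 in SmoM2 arrays, 9.62-fold lower (log2 -3.27, SE 0.15, adjusted p = 0.000135). Averaging its probe sets made it 4.002-fold lower (adjusted p = 0.00119). Slc40a1, the iron exporter ferroportin, changed by -1.24 (adjusted p = 0.00960), Il1rn, the interleukin-1 receptor antagonist, by -1.21 (adjusted p = 0.0121) and Lbp, which binds bacterial lipopolysaccharide, by -1.03 (adjusted p = 0.00767). Liver-type acute-phase genes such as Hp, haptoglobin, were dim, at 4.99 and 5.11 in Sox9cKO arrays against 4.76 and 4.66 in SmoM2 arrays (adjusted p = 0.254). The adjusted p was 0.0749 for Slc40a1 without SmoM2 replicate 1, 0.0591 and 0.0974 for Il1rn without SmoM2 replicate 1 or 2, and 0.0668 for Lbp without SmoM2 replicate 2. With the mean of its probe sets Lbp was at -0.36 (adjusted p = 0.178).

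In a list drawn up around cytokines that induce such genes, 4 of 26 measured fell and 1 rose (median -0.18). Not all of the list are inducers, since it also held Il1f5, the interleukin-36 receptor antagonist (log2 -0.43, adjusted p = 0.203). The genes of interleukin-36 alpha, beta and gamma all fell. Il1f6, which encodes interleukin-36 alpha, read 5.12 and 4.97 in Sox9cKO arrays against 7.15 and 7.24 in SmoM2 arrays, 4.44-fold lower (log2 -2.15, SE 0.14, adjusted p = 0.000446). Il1f9, interleukin-36 gamma, read 6.32 and 6.37 in Sox9cKO arrays against 8.39 and 8.50 in SmoM2 arrays, 4.30-fold lower (log2 -2.11, adjusted p = 0.000446). Il1f8, interleukin-36 beta, read 5.84 and 5.78 in Sox9cKO arrays against 6.96 and 7.56 in SmoM2 arrays, 2.74-fold lower (log2 -1.45, adjusted p = 0.00738). In each of these 3 genes the groups did not overlap, and Il1f6 was under the array median in Sox9cKO arrays. Hbegf, an EGF receptor ligand, fell by 1.41 on the log2 scale (adjusted p = 0.00319).

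Tslp, a keratinocyte cytokine of allergic inflammation, was the 1 that rose. It read 9.16 and 8.19 in Sox9cKO arrays against 3.73 and 3.65 in SmoM2 arrays (log2 4.98, SE 0.29, adjusted p = 0.000318), with the SmoM2 values under the lower quartile. The inducers Il1a, Il1b, Tnf and Il6 did not pass. They differed by -0.44 for Il1a (adjusted p = 0.301), 0.10 for Il1b (adjusted p = 0.818), -0.45 for Tnf (adjusted p = 0.285) and -0.20 for Il6 (adjusted p = 0.531). Il1a and Il6 were under the median on all arrays, as was Il17a (log2 0.11, limma adjusted p = 0.817). Il17c, Il17f and Il22 were listed but not measured. All 5 cytokine calls held under every alternative in which the gene was tested. With the replicate block, limma also called Il23a higher (log2 0.66, adjusted p = 0.0454). It called Il18 (log2 -0.74, adjusted p = 0.00875) and Il17b (log2 -0.75, adjusted p = 0.0491) lower.

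Of 32 measured receptors upstream of these genes, 6 fell and 1 rose (median -0.06). Il1rap, the accessory chain shared by the receptors for interleukin-1 and interleukin-36, read 7.48 and 7.13 in Sox9cKO arrays against 8.49 and 8.92 in SmoM2 arrays (log2 -1.40, adjusted p = 0.00716). Il1r2, a decoy receptor for interleukin-1, went the opposite way, at 10.38 and 9.88 in Sox9cKO arrays against 8.20 and 7.41 in SmoM2 arrays, 5.02-fold higher (log2 2.33, adjusted p = 0.00383). The groups were apart for both. Lifr and Osmr, receptor chains for cytokines of the interleukin-6 family, changed by -1.91 (adjusted p = 0.00749) and -1.36 (adjusted p = 0.0115). Cd14, a lipopolysaccharide co-receptor, changed by -1.12 (adjusted p = 0.0115), Tlr4, receptor for lipopolysaccharide and for calprotectin, by -0.74 (adjusted p = 0.0200) and Vdr, the vitamin D receptor, by -0.72 (adjusted p = 0.0451).

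Several of these receptor calls missed the threshold when 1 array was left out, with log2 changes of similar size. Il1rap, Lifr and Osmr were at -1.19, -1.63 and -1.17 without SmoM2 replicate 2 (adjusted p of 0.0535, 0.0626 and 0.0896), and only 1 gene of the list was then called lower. Cd14 was at -0.90 without SmoM2 replicate 1 (adjusted p = 0.0573). Tlr4 was at -0.77 to -0.70 with any 1 array left out (adjusted p = 0.0724 to 0.115), and its averaged probe sets gave an adjusted p of 0.0889. For Vdr the adjusted p was 0.177 without Sox9cKO replicate 1, and 0.166 and 0.199 without SmoM2 replicate 1 or 2, and 0.0680 with Y-linked signal as a block. With the mean of their probe sets Il1rap was at -0.80 and Osmr at -0.65.

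Il17ra, the interleukin-17 receptor chain, read 8.13 and 7.79 in Sox9cKO arrays against 8.03 and 8.12 in SmoM2 arrays (adjusted p = 0.803). Il1rl2, the interleukin-36 receptor, had a log2 change of 0.65 (adjusted p = 0.134). Of 14 receptors and binding partners of the products, 2 fell and none rose (median -0.04), namely Tlr4 and the scavenger receptor Cd36. Cd36 changed by -1.54 (adjusted p = 0.0120), while its averaged probe sets gave -1.07 (adjusted p = 0.0957). Ager, the receptor RAGE that binds S100 proteins, read 6.19 and 6.31 in Sox9cKO arrays against 6.33 and 6.44 in SmoM2 arrays (adjusted p = 0.698).

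Among signal and transcription regulators, 5 of 36 measured genes fell and none rose (median -0.27), and 28 of the 36 had a negative change. Zc3h12a, an RNase that degrades inflammatory messages and is itself induced by interleukin-17, read 7.23 and 7.39 in Sox9cKO arrays against 8.72 and 9.01 in SmoM2 arrays, 2.93-fold lower (log2 -1.55, SE 0.16, adjusted p = 0.00204). Cebpd, a C/EBP factor of the acute phase, read 8.24 and 8.56 in Sox9cKO arrays against 9.47 and 9.86 in SmoM2 arrays, 2.40-fold lower (log2 -1.26, adjusted p = 0.00882). Nfkbiz, an NF-kB cofactor that acts on Lcn2 and defensin genes, read 10.41 and 10.58 in Sox9cKO arrays against 11.21 and 11.68 in SmoM2 arrays (log2 -0.95, adjusted p = 0.0282). The groups did not overlap for any of the 3. Grhl3, an epidermal differentiation factor, and Bcl3, another NF-kB cofactor, changed by -1.05 (adjusted p = 0.0270) and -0.70 (adjusted p = 0.0246).

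Of the 5 regulators, Zc3h12a passed under every alternative in which it was tested. Cebpd, Nfkbiz and Grhl3 had adjusted p of 0.0659, 0.131 and 0.168 without SmoM2 replicate 2, and 1 regulator was called lower. Nfkbiz also missed without Sox9cKO replicate 1 (adjusted p = 0.101) or 2 (adjusted p = 0.0552) and with the mean of its probe sets (adjusted p = 0.111). Grhl3 missed without Sox9cKO replicate 2 (adjusted p = 0.0850) or SmoM2 replicate 1 (adjusted p = 0.0799), and Bcl3 with any 1 array left out (adjusted p = 0.0763 to 0.127) or with Y-linked signal as a block (adjusted p = 0.0519). Cebpb and Stat3, which act on the same genes, were bright, with changes of -0.26 (adjusted p = 0.443) and -0.34 (adjusted p = 0.370).

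Of 18 measured proteases and protease inhibitors around these products, 6 fell and 1 rose (median -0.36). The kallikreins Klk10, Klk6 and Klk8, serine proteases of the upper epidermis, were lower by 4.18-fold, 3.25-fold and 3.29-fold (adjusted p of 0.000491, 0.000875 and 0.00912). Klk5, the kallikrein best known for processing cathelicidin in human skin, read 6.68 and 7.29 in Sox9cKO arrays against 7.26 and 6.69 in SmoM2 arrays (adjusted p = 0.988). Spink12 and Spink5, kallikrein inhibitors, changed by -4.10 (adjusted p = 0.00253) and -2.77 (adjusted p = 0.0382), and Casp1, which activates interleukin-1 beta, by -1.17 (adjusted p = 0.00929). Dpp4, a peptidase, read 10.50 and 10.32 in Sox9cKO arrays against 8.41 and 8.22 in SmoM2 arrays, 4.27-fold higher (adjusted p = 0.000520), with 2.76-fold from its averaged probe sets.

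Spink5 varied most within groups, at 5.73 and 7.16 in Sox9cKO arrays against 8.41 and 10.03 in SmoM2 arrays. Its log2 change was -2.06 and -3.49 without Sox9cKO replicate 1 or 2, and -3.58 and -1.96 without SmoM2 replicate 1 or 2. Without Sox9cKO replicate 1 its adjusted p was 0.0972, without SmoM2 replicate 2 it was 0.171, with an intensity trend 0.297, with averaged probe sets 0.0591 and with Y-linked signal as a block 0.0531. Casp1 had an adjusted p of 0.0743 and 0.0642 without SmoM2 replicate 1 or 2.

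**Figure D3:**
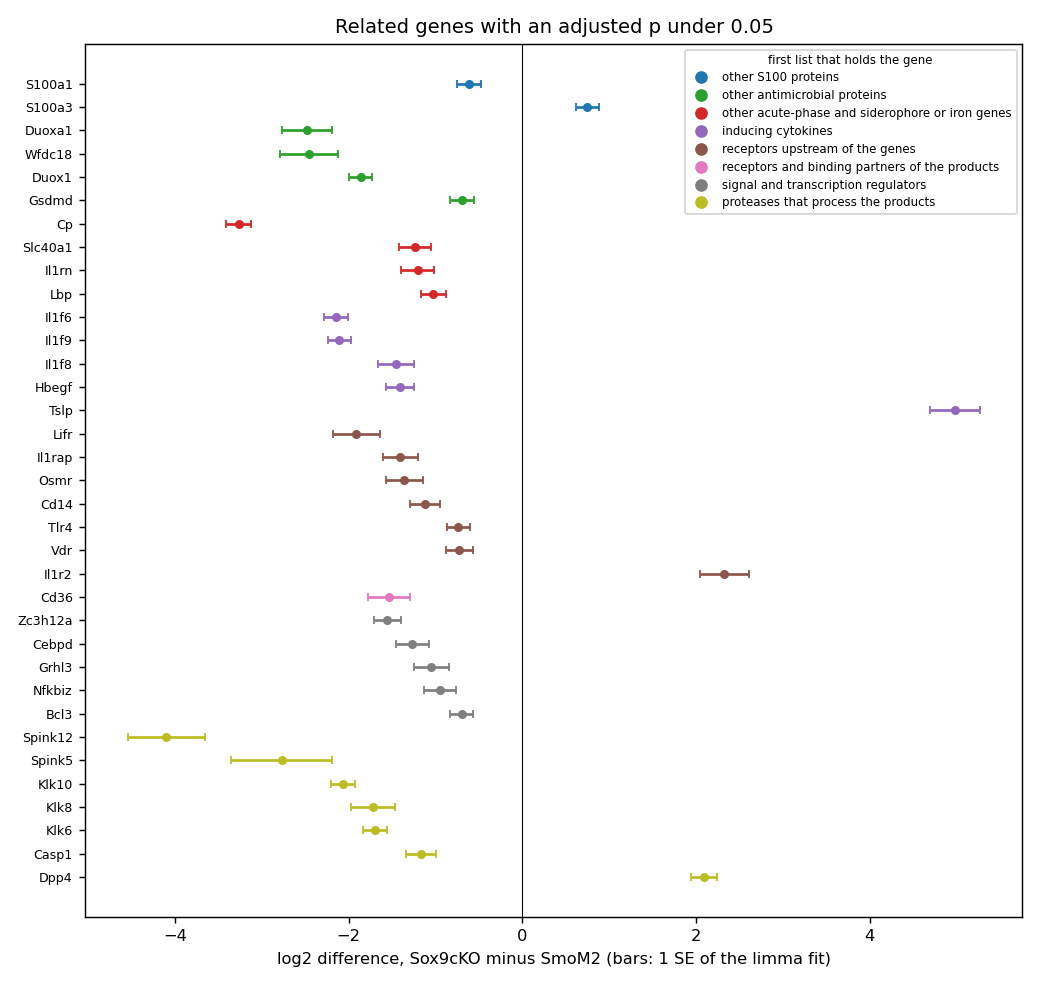
Log2 difference, Sox9cKO minus SmoM2, with 1 SE of the limma fit, of the 35 related genes with an adjusted p under 0.05, coloured by the first list that holds each. Tslp, Il1r2, Dpp4 and S100a3 lie right of 0 and the other 31 lie left of it, from Spink12 at -4.10 to S100a1 at -0.61.

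Neutrophils hold calprotectin, Lcn2 and Camp in large amounts. None of their measured markers was called lower, but the median signal of the list was 4.79 and 4.59 in SmoM2 arrays, under the array median. Markers that dim had little room to fall, so the lack of lower calls is no test of neutrophil content. Of 23 neutrophil markers listed, 17 were measured, and Ly6g, a defining one, was not. Of the 17, 2 rose and none fell. The log2 summed signal of the list was 12.06 and 11.92 in Sox9cKO arrays against 11.04 and 11.15 in SmoM2 arrays. The 2 that rose were Il1r2 and Stfa3, a stefin, which changed by 0.67 (adjusted p = 0.0486), and they carried most of that sum. The other 15 markers summed to 8.60 and 8.72 in Sox9cKO arrays against 8.58 and 8.46 in SmoM2 arrays, a sum added after the values were seen. The 4 defining markers that were measured lay near or under the array median. Elane read 5.49 and 5.96 in Sox9cKO arrays against 5.40 and 5.08 in SmoM2 arrays. Mpo read 4.73 and 4.52 in Sox9cKO arrays against 4.87 and 4.44 in SmoM2 arrays, and Ltf read 4.44 and 4.64 in Sox9cKO arrays against 4.80 and 4.36 in SmoM2 arrays. Ngp read 5.03 and 5.32 in Sox9cKO arrays against 4.77 and 4.91 in SmoM2 arrays, and none of the 4 passed by limma. Stfa3 missed the threshold with any 1 array left out (adjusted p = 0.0788 to 0.224), after quantile normalization (adjusted p = 0.0505) and with Y-linked signal as a block (adjusted p = 0.0696).

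Of 18 monocyte and macrophage markers only Cd14 passed, as lower, and the log2 summed signal was 9.46 and 9.49 in Sox9cKO arrays against 9.56 and 9.42 in SmoM2 arrays. Ptprc, the pan-leukocyte marker, read 3.86 and 4.07 in Sox9cKO arrays against 4.01 and 3.57 in SmoM2 arrays, under the lower quartile on all 4. Of 9 T cell markers none passed by limma, with 0 at an unadjusted p under 0.05 and Cd3e at 5.37 and 5.89 in Sox9cKO arrays against 5.42 and 5.46 in SmoM2 arrays. Of 9 Langerhans and dendritic cell markers 1 rose, the MHC class II gene H2-Aa (log2 1.87, adjusted p = 0.00102; 0.96 from its averaged probe sets), and the list summed to 9.58 and 9.59 in Sox9cKO arrays against 9.28 and 9.05 in SmoM2 arrays. Cd207, the Langerhans cell lectin, was dim (adjusted p = 0.237).

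Some epithelial markers differed between the groups along with the genes described. Of 10 markers of the upper hair follicle 5 fell and 1 rose, and the log2 summed signal was 14.47 and 14.85 in Sox9cKO arrays against 14.99 and 15.17 in SmoM2 arrays. Cst6, a cystatin, was 3.51-fold lower (adjusted p = 0.00241) and Plet1, a surface protein of the follicle, 4.05-fold lower (adjusted p = 0.00811), with 2.57-fold from its averaged probe sets. Lrig1, a stem cell surface protein, changed by -1.61, or -0.98 from its averaged probe sets. The 1 that rose, the transcription factor Gata6, changed by 0.78 (adjusted p = 0.0481), or 0.36 from its averaged probe sets (adjusted p = 0.317). Of 10 markers of stressed keratinocytes 2 fell and none rose, with a summed signal of 15.38 and 15.22 in Sox9cKO arrays against 15.51 and 15.91 in SmoM2 arrays. All 10 of these stress markers had a negative change (median -0.58), and those called by limma were Serpinb3a (log2 -1.68, adjusted p = 0.0167) and Il1rn. The stress keratins Krt6a and Krt16 were bright, with changes of -0.30 (adjusted p = 0.361) and -0.61 (adjusted p = 0.111). Bright genes weigh most in such sums. Krt17 (log2 -0.05, adjusted p = 0.934) and Sprr1a (log2 -0.56, adjusted p = 0.417) stand in both lists.

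The sebocyte list had 3 of 10 measured markers lower and none higher, at a summed signal of 14.43 and 14.32 in Sox9cKO arrays against 14.53 and 14.39 in SmoM2 arrays. Of 10 suprabasal markers 3 rose and none fell, at 15.17 and 15.61 in Sox9cKO arrays against 15.30 and 15.25 in SmoM2 arrays. The basal keratinocyte list summed to 15.12 and 15.37 in Sox9cKO arrays against 15.30 and 15.63 in SmoM2 arrays. Of 7 bulge markers 3 fell and 1 rose, at 13.08 and 12.67 in Sox9cKO arrays against 12.78 and 12.88 in SmoM2 arrays. With at least 1 array left out, the marker calls of Stfa3, Cd14, Il1rn, Lamb3, Nfatc1, Lhx2, Tcf7l1, Flg, Serpinb3a, Gata6 and Elovl5 missed the threshold. No marker was listed at 0, and the part of these cell types in the lower antimicrobial signals was not tested.

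**Figure D4:**
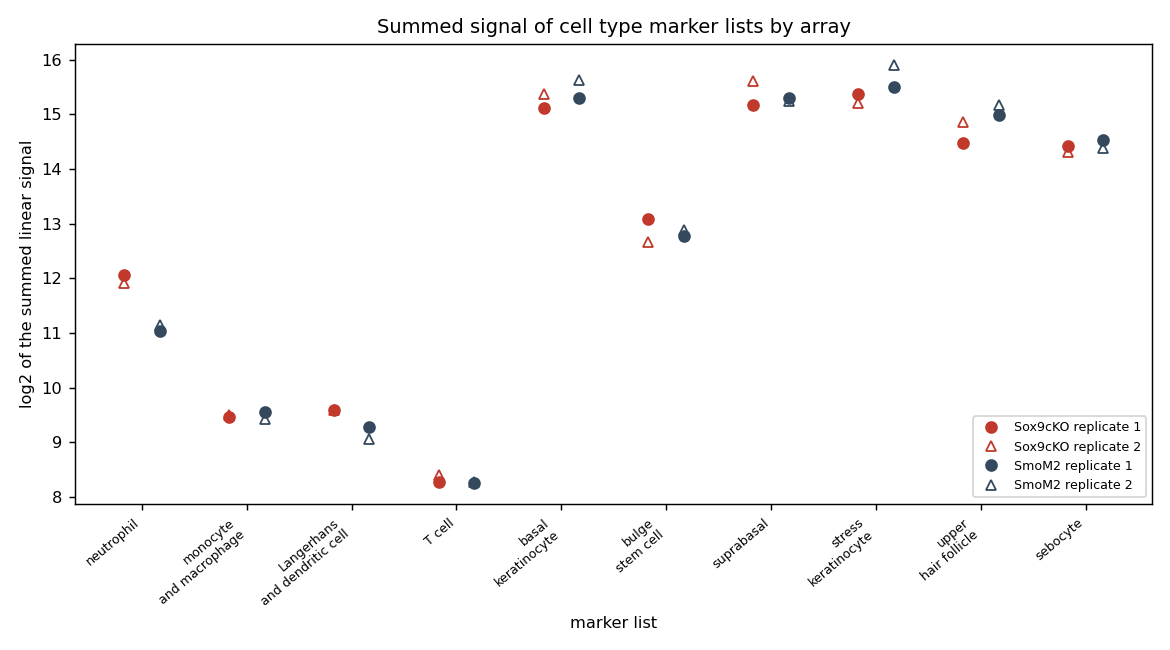
Log2 of the summed linear signal of each marker list on each array, with Sox9cKO arrays in red and SmoM2 arrays in blue; circles are replicate 1 and triangles replicate 2. The neutrophil list lies higher in Sox9cKO arrays through Stfa3 and Il1r2, the upper hair follicle and stressed keratinocyte lists lie lower, and the monocyte and T cell lists sit low on all arrays.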

How the data were processed

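The authors deposited log2 signals, 1 per probe set and array, of Affymetrix 3' arrays hybridised with 100 ng of amplified total RNA per sample, per the labels' protocols. How the authors normalized them is not stated in the labels; per the submitters' processing notes R 2.14.0 was used, for a purpose not given. The log2 scale is inferred from the values' range. With arrays there is no depth to give, and precision is limited by their number.

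Control probe sets (64) and probe sets with several symbols (932) or none (9160) were left out of gene-level tests. Symbols were updated through the entrez ID, and the probe set with the highest mean stood for a gene. Sox9cKO was compared with SmoM2 by limma 3.58.1 under R 4.3.3 (lmFit, eBayes; two-sided, Benjamini-Hochberg over 18193 genes, threshold 0.05), which was first tested on simulated data.

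The 9 genes, the 9 related lists and the 10 marker lists were chosen with earlier results of these data known. Named were all probe sets of the 9 genes and of Sox9, the genes of each list with the smallest p, a fixed set of receptors, regulators and markers, and the 6 nearest profiles. S100a7a, Defb14, C3 and Ly6g were on the fixed set and had no probe set with 1 symbol. Promoter letters came from RefSeq. The labels link replicates across groups only by number and do not say whether arrays of the same number shared a batch. The spiked labelling controls were lower in replicate 2 of both groups. Alternatives are given at the end.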

Additional observations from a re-analysis of the deposited data

How the results depend on the processing

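Differences of the 9 genes, which were selected on these values, are given for their size only: an intensity trend, the blocks and the filter on dim genes leave them the same by construction, and leaving out 1 array moves them by part of the gap between replicates. With 1 array left out Defb3 ran from -5.25 to -4.21, Defb1 from 0.92 to 1.34 and Camp, whose groups overlapped, from -0.18 to 0.04. The median over the 9 genes was -1.75, and -1.83 to -1.68 with 1 array left out. With dim genes left out it was -3.64, because Camp, Defb4 and Saa3 were then not tested, and 2 related genes were called higher, against 4. The count of all called genes was 1126, and 534 to 900 with 1 array left out (579 without SmoM2 replicate 1, 534 without SmoM2 replicate 2). Related genes called lower were 18 to 26 and higher 3 to 6 with 1 array left out. With the replicate block 1919 genes were called, among them 10 related genes higher and 44 lower. Across genes, the differences between replicates 1 and 2 of the groups correlated at 0.09, and with 2 pairs this does not show pairing. With Y-linked signal as a block, an alternative chosen after seeing the data, 999 genes were called, 4 related genes higher and 28 lower. The mean of probe sets, an intensity trend with robust prior and quantile normalization gave 1015, 1149 and 1068 calls. Signals near the lower quartile cannot be told from background, so differences of dim genes are not exact.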
